A study of Mus musculus with 84 samples.

Results

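The genes described here are 8 genes of the oligodendrocyte and its myelin, Mbp, Mobp, Mag, Mog, Cnp, Cldn11, Ermn and Bcas1, and Padi2, which encodes peptidylarginine deiminase 2. They were taken from the deposited table of gene counts by symbol, after matching of Ensembl identifiers, and make up 9 of its 43629 genes. All 9 passed the filter on low counts, which left 17071 genes for testing. The members were chosen by their expression in the same data, including the difference of Padi2 between the lines in these counts, so the values that compare the lines for these genes are a description with no test.

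The samples were 84 adult mice, all naive and untreated, from lines named SOT and NOT, with RNA from ventrolateral striatum dissected by hand. Labels name 44 animals High Drinker (21 females and 23 males) and 40 animals Low Drinker (18 females and 22 males), but do not say which of SOT and NOT carries which name, and they give no exact age, litter or family. The groups share tissue, handling, library kit and the absence of treatment, and the labels name no difference between them other than the line. P-values measure the spread between animals of these lines, which were treated as independent though their relatedness is not known. They cannot tell drinking apart from any other fixed difference of the lines.

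Total counts per library ran from 22190363 to 41300401. The numbers that end the sample titles run in 3 sets, which hold 48, 30 and 6 libraries, and the set was kept as a term in the models. In the sets, High and Low Drinker had 30 and 18, 11 and 19, and 3 and 3 animals. In an earlier analysis 5 libraries, Low Drinker 8, 32, 33 and 34 and High Drinker 17, did not group with the others, and results that rest on them are given with and without them. Markers of medium spiny neurons were counted in every library, at levels that varied widely. The summed level of 9 such markers ran from 440 to 10786 CPM (counts scaled to a common library size after normalization) among High Drinker animals. Among Low Drinker animals it ran from 230 to 9195 CPM, and single markers fell to 1.18 CPM (Drd2) and 1.91 CPM (Adora2a). The summed level of 4 cortical neuron markers, which do not mark the labelled tissue, also varied widely, at 120 to 2413 and 359 to 2884 CPM.

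Myelin is the multilayered membrane that oligodendrocytes wrap around axons in the central nervous system, and in the striatum it lies mostly in the fibre bundles that cross the nucleus. Myelin basic protein, from Mbp, holds the cytoplasmic faces of the membrane layers together, and the transcription factors SOX10 and MYRF drive many genes of the mature oligodendrocyte. Peptidylarginine deiminases convert arginine residues of proteins to citrulline, Padi2 is the main member of the family in oligodendrocytes, and myelin basic protein is a known substrate. In bulk tissue, fewer oligodendrocytes and less RNA per oligodendrocyte cannot be told apart.

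The sequence before the start of a gene is shown for 4 members, to set Padi2 beside 3 of the myelin genes whose levels moved together. RefSeq (GRCm38.p6) held 9 windows for 7 of the members, and none was found for Mbp and Bcas1. Each line runs 5′ to 3′ on the gene's strand from the 250th base before the RefSeq start and stops before the first base of the gene in the deposited table. Capitals mark 2 kinds of letters searched on both strands, which do not overlap here: ACAAAG or ACAATG, read by SOX factors such as SOX10, and CTGGCAC or CTGGTAC, read by MYRF. The windows are chr4:140906110-140906343 (plus strand) for Padi2, chr9:120149492-120149741 (plus strand) for Mobp, chr7:30914874-30915113 (minus strand) for Mag and chr17:37023399-37023648 (minus strand) for Mog.
Padi2: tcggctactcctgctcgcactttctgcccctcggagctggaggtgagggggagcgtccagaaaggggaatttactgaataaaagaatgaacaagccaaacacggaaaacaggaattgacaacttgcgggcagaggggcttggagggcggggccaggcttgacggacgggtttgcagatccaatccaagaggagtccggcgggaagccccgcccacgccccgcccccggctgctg
Mobp: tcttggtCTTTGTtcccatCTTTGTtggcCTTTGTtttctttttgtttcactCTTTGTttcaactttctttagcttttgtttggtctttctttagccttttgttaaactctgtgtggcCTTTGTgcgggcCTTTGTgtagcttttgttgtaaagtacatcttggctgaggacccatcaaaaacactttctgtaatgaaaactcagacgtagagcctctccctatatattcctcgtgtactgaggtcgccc
Mag: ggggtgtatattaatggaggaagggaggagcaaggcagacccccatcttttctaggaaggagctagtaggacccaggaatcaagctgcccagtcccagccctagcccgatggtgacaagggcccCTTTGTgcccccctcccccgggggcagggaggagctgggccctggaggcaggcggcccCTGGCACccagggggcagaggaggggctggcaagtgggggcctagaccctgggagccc
Mog: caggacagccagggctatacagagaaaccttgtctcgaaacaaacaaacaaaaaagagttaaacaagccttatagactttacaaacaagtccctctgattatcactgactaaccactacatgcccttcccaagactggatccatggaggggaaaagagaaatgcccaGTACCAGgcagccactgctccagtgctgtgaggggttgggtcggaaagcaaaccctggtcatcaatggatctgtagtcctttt

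Over the full 250 bases, SOX letters were present in 25.2% of 32851 windows of all genes and in 5 of the 9 member windows. These belong to 4 of the 7 members (Mobp, Mag, Cnp and Ermn). Mobp held 6 such matches, and no other of the 32851 windows held as many. MYRF letters were present in 5.93% of all windows and in 4 of the 9 member windows, from 3 members (Mag, Mog and Cnp). They lie at 68 bases before the start in the Mag window shown and at 83 bases before it in Mog. Overlapping Mag windows share their matches, so the member windows are not independent. The windows of Padi2 and Cldn11 held neither, which says only that these letters are not in these 250 bases. A match is a description of the sequence and not a measured site.

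The 9 genes lie on 8 chromosomes (build mm10). Mbp spans positions 82475146 to 82585637 on the plus strand of chromosome 18, Mobp 120149742 to 120181484 on the plus strand of chromosome 9 and Cnp 100574904 to 100591729 on the plus strand of chromosome 11. Mag lies at 30899176 to 30914873 on the minus strand of chromosome 7, Mog at 37010743 to 37023398 on the minus strand of chromosome 17 and Cldn11 at 31149920 to 31164324 on the plus strand of chromosome 3. Bcas1 and Ermn are both on the minus strand of chromosome 2, far apart, at 170346991 to 170427845 and at 58045113 to 58052864. Padi2 lies at 140906344 to 140952586 on the plus strand of chromosome 4. All are protein-coding genes, and no member shares an exon with another gene on the same strand.

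The myelin transcripts differed widely in level. On the scale that corrects for exon length (CPM divided by exon length in kilobases, RPKM), their order by median was the same in both lines. By median CPM Bcas1 and Cldn11 traded places, at 137.4 and 136.8 in High Drinker and 137.7 and 144.8 in Low Drinker. The median RPKM over 84 animals was 290.06 for Mbp, 120.2 for Mobp, 99.8 for Cnp, 74.3 for Cldn11, 53.0 for Mag, 39.6 for Mog, 36.5 for Bcas1 and 14.3 for Ermn. Padi2, at a median of 3.51 RPKM, was the lowest of the 9. Neighbours in this order lay apart by more than their SDs at 3 places, between Mbp (307.3 ± 85.1 RPKM, SD, n = 84) and Mobp (127.6 ± 39.8), between Bcas1 (38.6 ± 10.8) and Ermn (14.5 ± 4.18), and between Ermn and Padi2 (4.06 ± 1.90 RPKM). From Mobp down to Bcas1 each gene overlapped the next within 1 SD.

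Among the structural proteins of compact myelin, Mbp ran from 1256 over a median of 2428 to 4137 CPM in the 44 animals of High Drinker and from 971 over 2550.05 to 5199.6 CPM in the 40 of Low Drinker. Mobp, a small basic protein of the same layers, ran from 404 over 795 to 1477 CPM in High Drinker and from 266 over 772 to 1833 CPM in Low Drinker. Cldn11, the claudin of the tight junctions between the layers, ran from 71.5 over 137 to 268 CPM and from 56.4 over 145 to 261 CPM. With all animals kept, the ranges of the lines lay on top of each other for all 3 genes. For Mbp 3 Low Drinker animals stood above every High Drinker animal and 1 stood below every one of them. Low Drinker 8 was highest for Mbp and Mobp and Low Drinker 32 lowest for all 3 genes. Both are among the 5 libraries that stood apart. Without those 5, the lowest Low Drinker animal for Mbp was Low Drinker 38 (1907 CPM). High Drinker 5, 24, 18, 29 and 21 (1256 to 1892 CPM) lay below it.

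Mag, an adhesion protein of the membrane that faces the axon, ran from 113 over 215 to 369 CPM in High Drinker and from 84.3 over 222 to 412 CPM in Low Drinker. Mog, an immunoglobulin-like protein of the outermost layer, ran from 36.7 over 65.9 to 129 CPM and from 27.1 over 69.3 to 119 CPM. In both genes the lines overlapped almost completely, with 44 and 43 of the 44 High Drinker animals inside the Low Drinker range. The lower end of that range was Low Drinker 32, one of the 5 libraries that stood apart. Without those 5, the lowest Low Drinker values were 168 and 43.8 CPM (Low Drinker 35), and High Drinker 5 and 24 lay below both.

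Cnp, an enzyme of the cytoplasmic channels of myelin that cleaves cyclic nucleotides, ran from 203 over 361 to 633 CPM in High Drinker and from 161 over 364 to 588 CPM in Low Drinker. Ermn, a cytoskeletal protein of the mature oligodendrocyte, ran from 26.9 over 51.8 to 87.8 CPM and from 19.9 over 51.4 to 101 CPM. Bcas1, which marks oligodendrocytes in the course of making myelin, ran from 83.1 over 137 to 247 CPM and from 66.5 over 138 to 297 CPM. With all animals kept, the lines again covered much the same range, and the medians of Cnp, Ermn and Bcas1 differed by less than 1% between them. The lowest Low Drinker animal for all 3 genes (Low Drinker 32) and the highest for Bcas1 (Low Drinker 8) were libraries that stood apart.

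**Figure D1:**
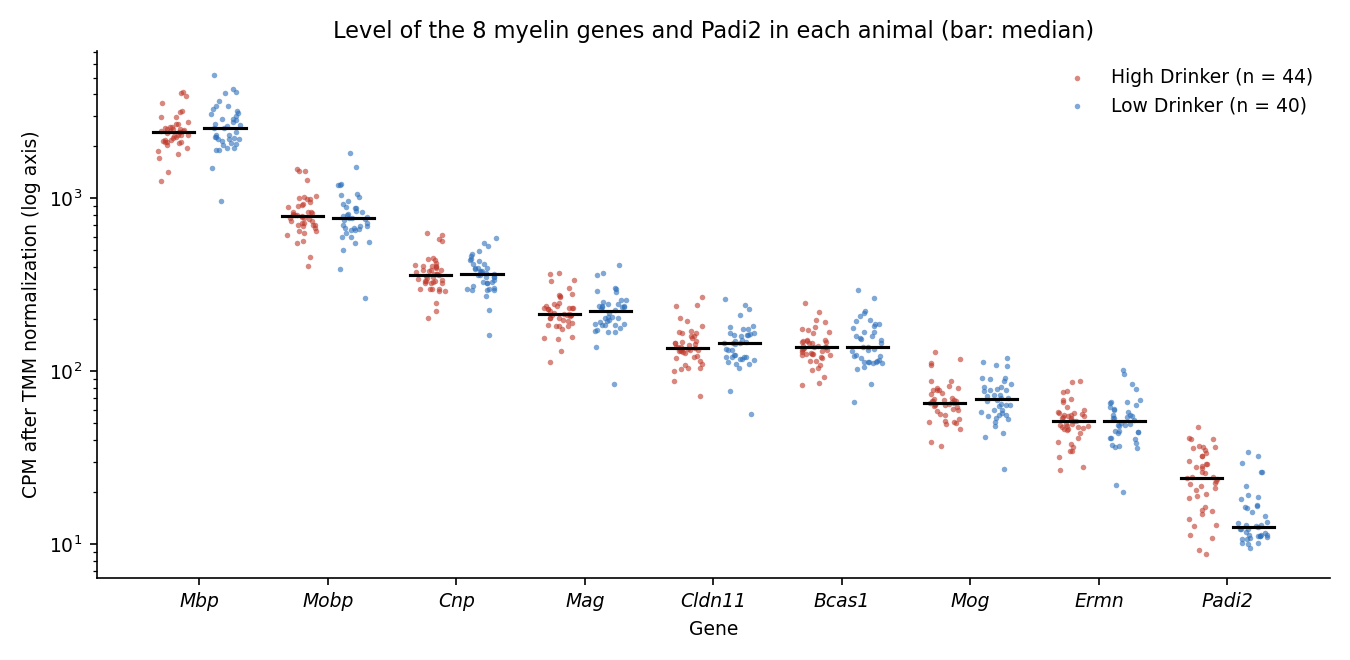
Level of the 8 myelin genes and Padi2 (CPM after TMM normalization, log axis) in each of 44 High Drinker and 40 Low Drinker animals, with 1 point per animal, a bar at the median and genes ordered by level. The lines overlap for the 8 myelin genes, whereas for Padi2 the medians are 24.2 and 12.6 CPM and 9 High Drinker animals lie above every Low Drinker animal.

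Padi2 had a different distribution. In High Drinker it ran from 8.78 over a median of 24.2 to 47.8 CPM, and the middle of the distribution was broad, from 17.9 CPM at the lower quartile to 32.4 CPM at the upper. In Low Drinker it ran from 9.52 over 12.6 to 34.3 CPM, with quartiles of 11.2 and 16.7 CPM, so most animals were crowded near the lower end. The lines overlapped: 33 of 44 High Drinker animals were inside the Low Drinker range, 9 were above it and 2 were below it. Even so, 40 of 44 High Drinker animals were above the Low Drinker median, and 35 of 40 Low Drinker animals were below the High Drinker median. These levels rest on 205 to 1562 reads per library, against 26255 to 175517 for Mbp.

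Padi2 was the member with the largest separation of the lines, and the myelin genes showed little. The log2 fold change of High against Low Drinker, from edgeR with sex and set in the model, was 0.75 ± 0.13 (SE, n = 44 and 40) for Padi2, whose means were 24.998 ± 9.63 and 15.3 ± 6.32 CPM (SD). For the 8 myelin genes it ran from -0.12 ± 0.09 for Mbp (means 2488 ± 606 and 2686 ± 814 CPM) and -0.11 ± 0.08 for Bcas1 (141 ± 32.8 and 151 ± 47.8 CPM) up to 0.001 ± 0.10 for Mobp (833 ± 233 and 820.1 ± 286 CPM). The median of all tested genes was 0.001. Intervals of 95% reached from -0.29 to 0.05 for Mbp and from -0.19 to 0.19 for Mobp, so differences of that size in either gene were not resolved in these animals.

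Of the 9 members 1, Padi2, had an adjusted p under 0.05 for the line, beside 3.94% of all 17071 genes (672, with 317 up and 355 down in High Drinker). Since this contrast was used in choosing the members, nothing is read from that count. Without the 5 libraries that stood apart the background was 2.49%, and the log2 fold change of Padi2 was 0.73 ± 0.13. Over 13 alternatives of model and samples it stayed between 0.71 and 0.95, while the myelin genes stayed between -0.23 and 0.20.

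Padi2 was higher in High Drinker in both sexes and in both large sets. Means were 25.8 ± 9.49 against 15.6 ± 6.42 CPM in females (SD, n = 21 and 18) and 24.3 ± 9.91 against 14.98 ± 6.37 CPM in males (n = 23 and 22). In the sets of 48 and 30 libraries they were 24.1 ± 9.94 against 14.2 ± 5.58 CPM and 28.5 ± 9.22 against 15.1 ± 6.51 CPM. The set of 6 libraries went the other way, where 3 animals of High Drinker averaged 20.6 ± 4.96 CPM and 3 of Low Drinker 22.5 ± 6.55 CPM, values that overlap.

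The myelin genes varied together from animal to animal. Over the 28 pairs among the 8 genes, Pearson r of log2 CPM after removal of sex and set had a median of 0.95 among High Drinker animals (range 0.83 to 0.98, n = 44) and of 0.91 among Low Drinker animals (0.76 to 0.97, n = 40). The animals share libraries and depth across these genes, and the genes are not independent replicates. Ermn had the lowest correlation with the mean of the 8, at 0.90 over 84 animals after line, sex and set, and Mbp the highest, at 0.98. The mean log2 CPM of the 8 genes was 7.89 ± 0.34 in High Drinker and 7.91 ± 0.41 in Low Drinker (SD).

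The ends of this shared axis show its size. Low Drinker 32, a male and one of the 5 libraries that stood apart, had the lowest levels of all 8 genes, with Mbp at 971, Mag at 84.3 and Mog at 27.1 CPM. Low Drinker 2, a female, had the highest mean of the 8, with Mbp at 4287, Mag at 412 and Mog at 119 CPM. Padi2 in those animals was 15.4 and 21.6 CPM. Further animals at the high end, High Drinker 25, 44 and 9, had Mbp at 3939, 4137 and 4051 CPM, and their Padi2 levels were 47.8, 16.4 and 14.02 CPM. Read from the other end, the 3 animals with the highest Padi2 (47.8, 40.9 and 40.5 CPM) ranked 83, 71 and 75 from the lowest of 84 in the myelin mean, and the next 2 ranked 39 and 43. The 5 animals with the lowest Padi2 (8.78 to 10.13 CPM) ranked 40, 29, 17, 3 and 13.

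Markers of other cells moved with the myelin mean to a lesser degree. Over 84 animals after line, sex and set, r with the myelin mean was 0.06 to 0.30 for the 9 medium spiny neuron markers, 0.33 to 0.38 for the 3 choroid plexus and ependyma markers, -0.17 to -0.02 for the 4 cortical neuron markers and -0.19 to 0.39 for 5 astrocyte markers. With Padi2, r over all animals was -0.19 to -0.08 for the medium spiny neuron markers, 0.04 to 0.11 for the cortical neuron markers and -0.15 to -0.01 for the choroid plexus and ependyma markers. The pooled values join unlike lines. In Low Drinker r with Padi2 was -0.51 (Tac1) to -0.36 (Pde10a) for the medium spiny neuron markers and 0.33 (Slc17a7) to 0.46 (Neurod6) for the cortical neuron markers, all farther from 0 than the 0.31 with the myelin mean in that line. In High Drinker it was 0.06 to 0.19 and -0.10 to -0.04, and the difference between the lines was not tested. The summed level of the choroid plexus and ependyma markers was 3.08 to 114 CPM among High Drinker and 1.29 to 190 CPM among Low Drinker animals, and their part in the result was not tested. Prx, a marker of the Schwann cells that make peripheral myelin, had 7 to 39 reads in a library.

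Padi2 followed the myelin genes only weakly. Within a line, r with the mean of the 8 genes was 0.17 in High Drinker (two-sided permutation p = 0.263, adjusted over 2 correlations 0.263) and 0.31 in Low Drinker (p = 0.0556, adjusted 0.111). Spearman's rank correlation was 0.20 (permutation p = 0.186, adjusted 0.186) and 0.25 (p = 0.114, adjusted 0.186). Without the 2 animals farthest from the median of the myelin mean, r was 0.03 and 0.35. The difference between the lines in this correlation did not pass a permutation test (difference of Fisher-transformed r -0.15, p = 0.557).

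Within the larger sets this correlation was uneven. In High Drinker r was 0.34 in the set of 48 libraries (n = 30) and -0.15 in the set of 30 (n = 11), and in Low Drinker it was -0.23 (n = 18) and 0.56 (n = 19, permutation p = 0.0124, adjusted over both lines 0.0248). The set of 6 held too few animals. In Low Drinker without the libraries that stood apart, r was 0.39 (n = 36, permutation p = 0.0189, adjusted 0.0379). By Spearman's rank correlation neither of these passed in Low Drinker. It was 0.47 in the set of 30 (permutation p = 0.0443, adjusted 0.0887) and 0.31 without those libraries (p = 0.0689, adjusted 0.130). Gene by gene, the correlation of Padi2 with a myelin gene had a median of 0.16 for High Drinker animals (0.10 to 0.26) and 0.28 for Low Drinker animals (0.18 to 0.45), and Ermn in Low Drinker had the highest.

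**Figure D2:**
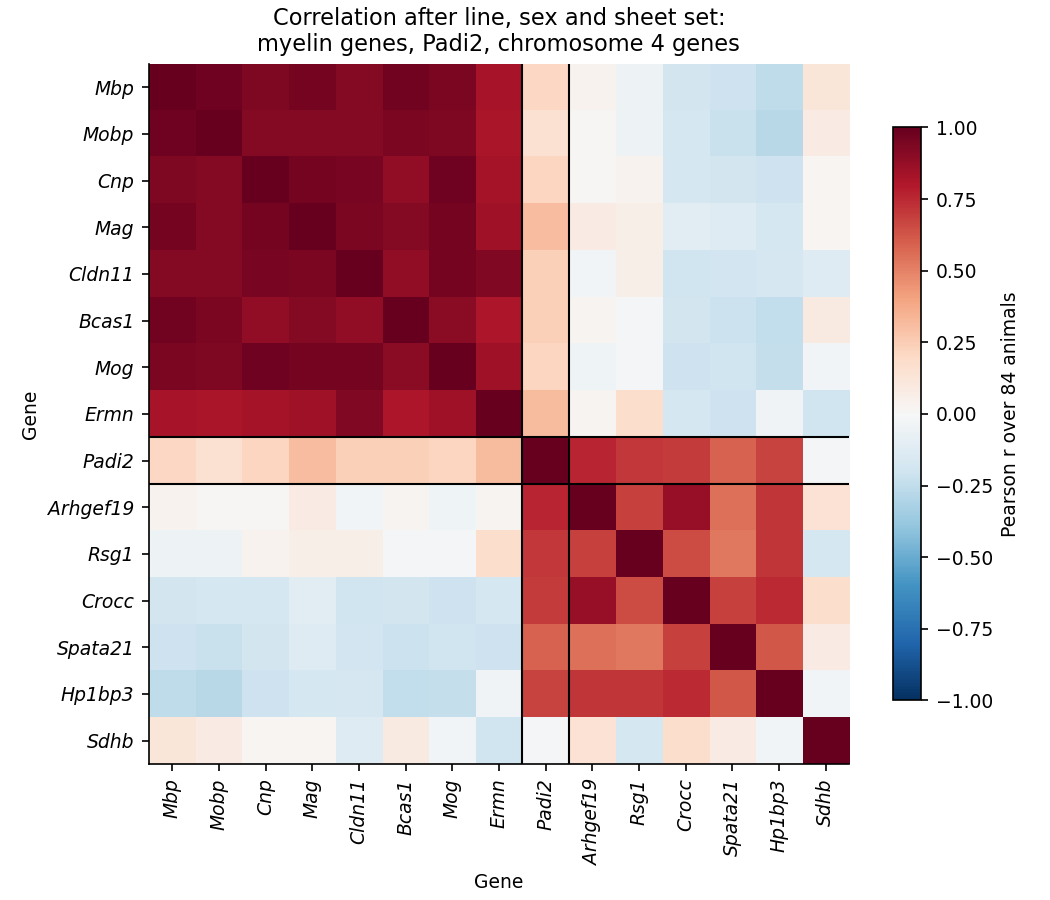
Pearson r between log2 CPM of the 8 myelin genes, Padi2 and 6 genes of chromosome 4 over 84 animals after removal of line, sex and set, on a colour scale from -1 to 1. The 28 pairs among the myelin genes lie between 0.81 and 0.97, whereas Padi2 has r of 0.15 to 0.32 with the myelin genes and 0.59 to 0.76 with Arhgef19, Rsg1, Crocc, Spata21 and Hp1bp3.

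The genes whose levels were most like Padi2 lay close to it on chromosome 4. Over 84 animals after line, sex and set, the 5 highest r among genes with a mean of at least 1 CPM belonged to Arhgef19 (0.76), a guanine nucleotide exchange factor, Rsg1 (0.71), a GTPase of cilium formation, Crocc (0.70), the rootletin of the ciliary rootlet, Hp1bp3 (0.68), a heterochromatin protein, and Zfp984 (0.61), a zinc finger gene. All 5 are on chromosome 4. Distances from Padi2 were 64.1 kb for Crocc, 261370 bases for Rsg1, 286913 bases for Arhgef19, 2661661 bases for Hp1bp3 and 6801388 bases for Zfp984. Zfp984 belongs to a cluster of near-identical copies, so its counts are uncertain.

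These genes were higher in High Drinker, as was Padi2. Arhgef19 had means of 16.7 ± 4.64 CPM for High Drinker and 11.5 ± 2.26 CPM for Low Drinker (SD, log2 fold change 0.55 ± 0.08, edgeR adjusted p = 1.19e-06). Crocc was at 135 ± 72.0 and 62.1 ± 24.8 CPM (1.12 ± 0.15, edgeR adjusted p = 4.11e-07), and Hp1bp3 at 267 ± 31.4 and 231 ± 24.2 CPM (0.21 ± 0.04, edgeR adjusted p = 0.000108). Within High Drinker alone r with Padi2 was 0.83 for Arhgef19, 0.77 for Crocc and 0.77 for Hp1bp3, and within Low Drinker alone it was 0.58, 0.49 and 0.47. For Rsg1 it was 0.80 in High Drinker and 0.52 in Low Drinker, whereas Zfp984 went the other way, at 0.58 and 0.62. The genes were picked over these same animals. The values were lower in Low Drinker for all but Zfp984, and these differences were not tested.

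**Figure D3:**
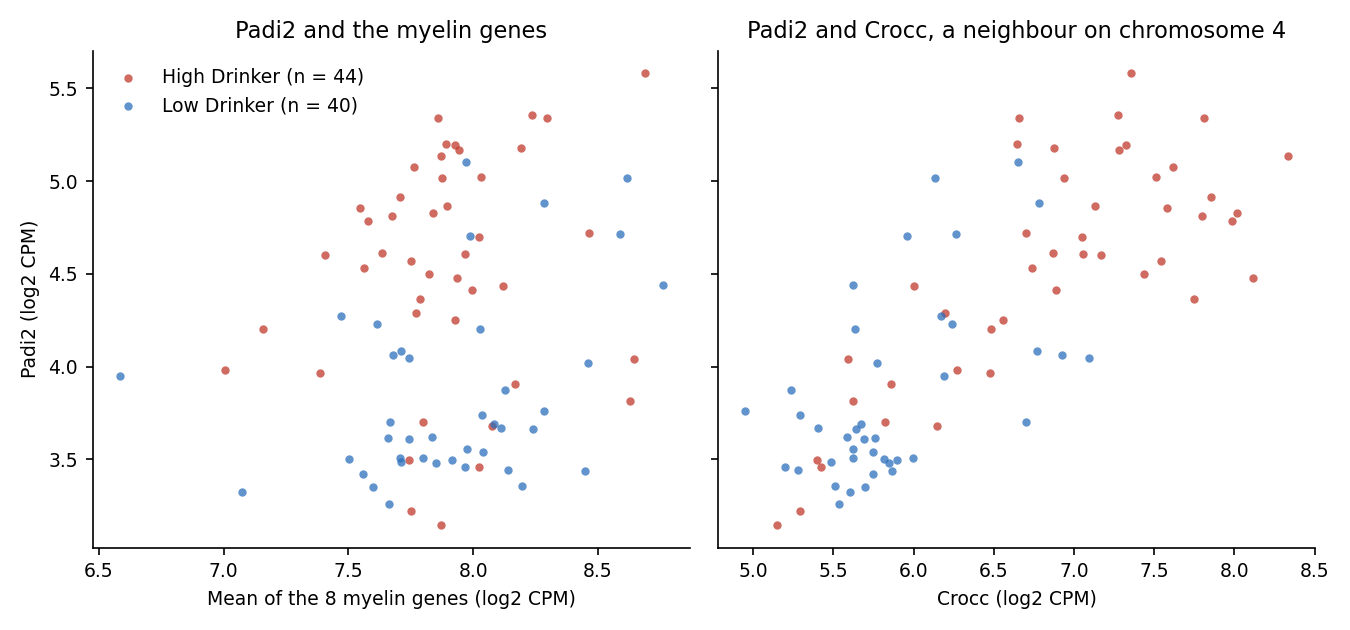
Padi2 (log2 CPM) against the mean of the 8 myelin genes on the left and against Crocc, 64.1 kb away on chromosome 4, on the right, with 1 point per animal (44 High Drinker, 40 Low Drinker). Points are drawn without removal of sex and set. After that removal r within High and Low Drinker was 0.17 and 0.31 on the left, and without it 0.16 and 0.34. On the right the points rise together, and r after removal of sex and set was 0.77 (High Drinker) and 0.49 (Low Drinker).

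Of the 20 genes with the highest r with Padi2, 19 lay within 20 Mb of it on chromosome 4, where 506 of the 17070 other tested genes lie (2.96%), and 0 were myelin members. Among the 50 highest there were 44. In High Drinker alone 19 of the 20 were in that stretch, and in Low Drinker alone 5 of 20 were. In the set of 48 libraries 18 of the 20 were, and 7 of the 20 in the set of 30. Over all tested genes 33 others had r beyond 0.5 in either direction, of which 27 were within 20 Mb of Padi2, 18 with positive and 9 with negative r.

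Outside chromosome 4 the 6 genes beyond that bound, named here after their values were seen, were 4930481A15Rik on chromosome 19 (r = 0.69), Wnt3a on chromosome 11 (-0.60) and 4 processed pseudogenes, Gm13886, Gm6594, Gm10093 and Gm5898 (-0.64 to -0.56). All but Gm10093 and Gm5898 had a mean under 1 CPM.

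In the same ranking the myelin members stood far lower. Their r with Padi2 was 0.15 to 0.32, at rank 119 for Ermn, 135 for Mag and 1752 for Mobp among the 17070 genes. By contrast, ranked by r with the myelin mean, of which they are part, the 8 myelin genes took places between 1 and 27, and Padi2 took place 1242 with r of 0.24. Outside the members, the genes most like the myelin mean were Mal (0.96), Pllp (0.95), Lpar1 (0.95), Tmem88b (0.94) and Gjb1 (0.94). Lpar1 and Tmem88b are also on chromosome 4, at 82352446 and 14829005 bases from Padi2, and their r with Padi2 was 0.22 and 0.23.

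Nearest to Padi2 the genes did not all move alike. Of 13 other tested genes within 250 kb, 3 passed the line test (edgeR, adjusted p under 0.05), all higher in High Drinker: Crocc, Spata21 (0.677 ± 0.284 and 0.478 ± 0.208 CPM, log2 fold change 0.50 ± 0.14) and Rcc2 (114 ± 9.74 and 107 ± 5.91 CPM, 0.10 ± 0.02). Rcc2 had r with Padi2 of 0.27 over all animals, 0.52 in High Drinker and -0.25 in Low Drinker. Sdhb, a subunit of succinate dehydrogenase that begins 8.62 kb from the end of Padi2, was at 126 ± 11.8 and 129.7 ± 14.3 CPM and had r of -0.01 with Padi2. Atp13a2, a lysosomal transporter 34.3 kb away, had r of -0.30, and its log2 fold change was -0.11 ± 0.04 (edgeR adjusted p = 0.0840). The nearest genes thus include ones unlike Padi2, and Crocc beyond them is among those most like it.

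The remaining 8 neighbours did not pass either. Over all animals Szrd1, Necap2, Arhgef10l and Mfap2 had r with Padi2 of 0.35, 0.37, 0.29 and 0.18, and Fbxo42 had r of -0.09. These pooled values join unlike lines. In High and Low Drinker r was 0.56 and -0.12 for Szrd1, 0.35 and -0.10 for Mfap2 and -0.11 and 0.09 for Fbxo42. It was 0.47 and 0.28 for Necap2 and 0.18 and 0.44 for Arhgef10l. The differences between the lines were not tested. Padi6, the family member of the egg, was the only other peptidylarginine deiminase tested. Its means were 0.749 ± 0.562 CPM for High Drinker and 0.591 ± 0.589 CPM for Low Drinker (log2 fold change 0.52 ± 0.26, edgeR adjusted p = 0.279), and its r with Padi2 was 0.48. Padi1, Padi3 and Padi4 had 380, 78 and 243 reads over all 84 libraries, too few for the test. Gm13031 is antisense to Padi2 and shares 149 exon bases with it. With counting whose strand setting is not known, its reads (median 39 per library) and those of Padi2 (median 543) may be mixed in that stretch.

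The share of genes called for the line changed with distance from Padi2. Within 1 Mb 6 of 38 other tested genes passed (15.8%), all higher in High Drinker, from 1 to 5 Mb 20 of 79 (25.3%, 12 higher), from 5 to 20 Mb 66 of 389 (16.97%, 36 higher) and farther along chromosome 4 27 of 560 (4.82%). On the other chromosomes the share was 3.45%. Around the myelin genes only the nearest 1 Mb was examined, where 1 of 4 genes passed near Mbp, 1 of 58 near Mag, 2 of 29 near Mobp and 0 near Cnp, Bcas1, Mog, Ermn and Cldn11, which have 58, 8, 22, 11 and 11 tested neighbours.

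**Figure D4:**
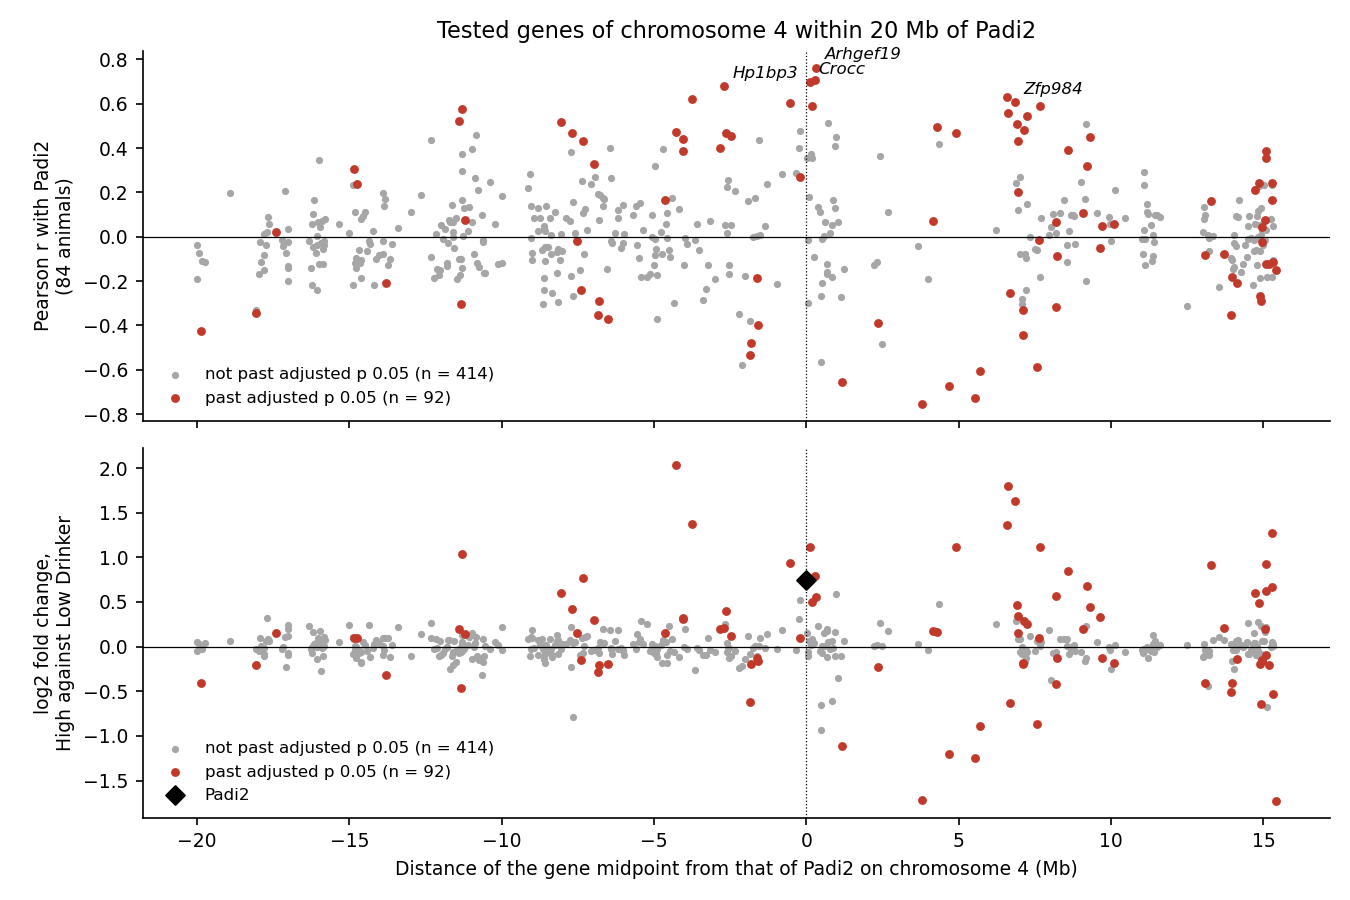
Tested genes of chromosome 4 within 20 Mb of Padi2, by distance of the gene midpoint from that of Padi2 (Mb): the upper panel gives Pearson r with Padi2 over 84 animals after line, sex and set, the lower panel the log2 fold change of High against Low Drinker, and red points are the 92 genes with an adjusted p under 0.05. Genes with r beyond 0.5 in either direction lie on both sides of Padi2 (18 positive and 9 negative), among many with r near 0.

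The animal-to-animal variation of Padi2 was also described by shares of variance after line, sex and set. The myelin mean took 5.98% and Sdhb 0.0201%. Arhgef19 took 58.2% and Crocc 48.4%, shares that follow from the choice of these genes as those most like Padi2 and are no comparison with the myelin mean. Arhgef19 and the myelin mean together took 63.6%, and Crocc and the myelin mean 62.9%. With the myelin mean as a covariate the line difference of Padi2 was 0.77 ± 0.12 on the log2 scale, close to the value without it.

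Sex made no detectable difference to the members. The log2 fold change of males against females ran from -0.12 (Bcas1) to 0.01 (Cnp), and 0 of 9 members passed (edgeR, lowest unadjusted p = 0.180), beside 0.0996% of all genes (17 of 17071). For Padi2 it was -0.04 with a 95% interval of -0.28 to 0.20. No gene of the table passed for an interaction of line and sex (0 of 17071 by edgeR, the only tool run for it, with 965 at an unadjusted p under 0.05, a background of 0.0%). The interaction was 0.01 ± 0.25 for Padi2 and between 0.16 and 0.32 for the myelin genes, with the lowest unadjusted p for Ermn (edgeR, p = 0.0749, adjusted p = 0.784).

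The spread between animals did not differ detectably between the lines either. Tested with limma on absolute deviations of log2 CPM from the median of line and sex, 0 of 9 members passed (lowest adjusted p = 0.979, 0 at an unadjusted p under 0.05), beside 0.0117% of all genes (2 of 17071). The estimates ran from -0.10 for Bcas1, lower in High Drinker, to 0.13 ± 0.08 for Padi2, higher in High Drinker. The coefficients of variation of CPM were 24.4% and 30.3% for Mbp, 23.3% and 31.7% for Bcas1 and 38.5% and 41.4% for Padi2 in High and Low Drinker. They include the 5 libraries that stood apart and were not computed without them.

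Beyond the members, 73 tested genes in 6 lists of the oligodendrocyte lineage were examined, with the members left out. By edgeR 4 rose in High Drinker and 0 fell, beside 1.86% of all genes that were higher and 2.08% that were lower. In the 16 genes of the sheath and paranode, among them Mal, Opalin and Nfasc, and in the 15 genes of myelin lipids and oligodendrocyte enzymes, among them Ugt8a, Fa2h and Aspa, 0 passed, with median log2 fold changes of -0.04 and -0.01 against 0.001 over all genes. Median r with the myelin mean was 0.85 and 0.81 in these lists and median r with Padi2 0.25 and 0.23.

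The 13 genes of process growth and cytoskeleton had 0 calls and a median of -0.004. Of 11 transcription factors 1 rose, Zfp488, a zinc finger regulator of oligodendrocyte differentiation, at 4.26 ± 0.932 and 3.51 ± 0.687 CPM (0.28 ± 0.07, edgeR adjusted p = 0.00704). Myrf and Sox10 had log2 fold changes of 0.07 ± 0.08 and 0.01 ± 0.06. Of 9 genes of newly formed oligodendrocytes 1 rose, Itpr2, an intracellular calcium release channel, at 25.7 ± 3.09 and 23.1 ± 3.39 CPM (0.15 ± 0.04, edgeR adjusted p = 0.0222).

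In 9 genes of oligodendrocyte precursors 2 rose, the proteoglycan core protein gene Cspg4 at 24.2 ± 4.38 and 21.4 ± 3.21 CPM (0.21 ± 0.05, edgeR adjusted p = 0.00344) and the extracellular matrix gene Tnr at 261 ± 53.2 and 231 ± 49.3 CPM (0.22 ± 0.07, edgeR adjusted p = 0.0379). Pdgfra, the growth factor receptor that defines these cells, was at 53.5 ± 6.80 and 49.1 ± 8.22 CPM and did not pass (0.12 ± 0.05, edgeR adjusted p = 0.182). The precursor list had a median r of 0.03 with the myelin mean and 0.02 with Padi2, unlike the myelin lists. Cspg4 lies at 56865104 to 56899870 on chromosome 9 and Tnr at 159523769 to 159931729 on chromosome 1. Their neighbours were not examined here, and whether their line differences go with position or with precursor cells was not tested. Over 13 alternatives of model and samples Cspg4 and Zfp488 passed in 9, Itpr2 in 8 and Tnr in 6. Without the 5 libraries that stood apart 2 of the 73 genes passed in place of 4, and within a single set or sex 0 did.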

How the data were processed

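RNA from ventrolateral striatum of 84 mice was measured as amplified-cDNA libraries read from a single end, per the labels' protocols. The authors deposited 1 table of unnormalized read counts for genes, with Ensembl identifiers, positions and exon lengths, in the layout of featureCounts per the file headers. FastQC, STAR, featureCounts from Subread, edgeR and build mm10 are named in the submitters' processing notes, while versions, and the handling of strand and of multi-mapping reads, are not given in the sources. Amplified cDNA holds duplicate molecules that counts cannot tell apart. All 43629 entries name a gene (0% of counts in others), 12117 were at 0 in every library, 0 of 3486 library pairs were identical, and the 37 mitochondrial genes had a total count of 0. No column of per-sample values was left unused (0 columns).

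From the counts, edgeR 4.0.16 in R 4.3.3 was run (quasi-likelihood F-test, TMM normalization, filterByExpr by line and sex, terms for set, sex and line, Benjamini-Hochberg adjustment over all tested genes at 0.05). CPM and RPKM were computed here after TMM. Variability was tested with limma 3.58.1 on log2 CPM with a prior count of 2. Correlations used residual log2 CPM, with 100000 resamples for each permutation test of Padi2 with the myelin mean. Alternatives used RLE factors, no filter, DESeq2 1.42.0, limma-voom, 5 surrogate variables from sva 3.50.0, added covariates and subsets of animals. Plots used matplotlib 3.10.9 and the remaining steps pandas 2.3.3, scipy 1.17.1 and numpy 2.4.6 in Python 3.11.15. The edgeR and variability tests were checked on simulated data, and the permutation tests were not. In the simulated line difference 16 of 202 calls were false, and 76% of changes of 1.25-fold were recovered. The precision of levels is set by the spread between animals at these depths.

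The members, lists and rules were chosen with earlier results of these data known. Named were all members, the 5 genes of at least 1 CPM with an established symbol most like Padi2 and most like the myelin mean, tested genes with an established symbol within 250 kb of Padi2, other tested Padi genes, and up to 3 called genes of each list. The sets are an inference from the numbering in titles. Promoter sequences come from RefSeq (GRCm38.p6), and sequences of Mbp and Bcas1 and protein sequences were not used here. Lists and markers matched by symbol, apart from 1 process gene and 1 precursor gene.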

Additional observations from a re-analysis of the deposited data

How the results depend on the processing

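No paired analysis was possible because the replicate numbers only count the samples of a line in accession order and pair no animals. The number of genes called for the line was 672 in the fit described and 659 with limma-voom, 829 with DESeq2, 866 without the set term and 582 without a filter. It was 2468 with surrogate variables, 425 without the 5 libraries that stood apart, 79 in the set of 48 and 79 in the set of 30 libraries, 35 in females, 107 in males and, with Arhgef19 as a covariate, 120. Padi2 kept its direction in all 13 alternatives without a chromosome 4 covariate. Its passes there are not read as support, because they refit the contrast that chose Padi2 on the same animals. In females alone Padi2 did not pass (edgeR adjusted p = 0.0723). With Arhgef19 or Crocc as a covariate its line difference was 0.07 ± 0.10 and 0.16 ± 0.11 and did not pass, a loss set by the choice of covariates that are most like Padi2 and differ between the lines themselves. The 8 myelin genes passed in 0 of these 13. For sex the count of 17 became 34 without a filter, 10 in High Drinker and 11 in Low Drinker, and the variability count of 2 became 5 with a prior count of 0.5 and 0 without the 5 libraries (limma, 609 at an unadjusted p under 0.05), with 0 members in each. The correlation of Padi2 with the myelin mean changed sign in the set of 30 for High Drinker (-0.147) and in the set of 48 for Low Drinker (-0.228). In Low Drinker its Pearson r passed without the 5 libraries (0.388), in the set of 30 (0.564) and after adjustment for the medium spiny neuron mean (0.420, permutation p = 0.00723, adjusted 0.0145). By Spearman's rank correlation none of these settings passed (adjusted permutation p = 0.130, 0.0887 and 0.215). The causes were not tested. Of the 73 lineage genes, 8 were called with surrogate variables (7 rose and 1 fell), beside 14.5% of all genes. With the myelin mean as covariate 8 were called (6 rose and 2 fell), beside 4.09% of all genes. Of the 20 genes most like Padi2, 14 in females and 16 in males lay within 20 Mb of it. The gene covariates, the medium spiny neuron covariate of the line fit, and the settings for likeness and lists were chosen after seeing the data. Exon overlaps on the opposite strand (Cnp, Bcas1, Ermn and Padi2) limit those counts, depth limits Padi1, Padi3 and Padi4, and bulk tissue limits any statement on cells.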
